A study of Homo sapiens with 33 samples.

Results

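CEM is a human T-cell acute lymphoblastic leukaemia line, and the comparison described here is its RNA after 24 h in 2 µM CHIR-99021 against untreated CEM cells. The libraries were chosen by their titles: 3 of treated and 3 of untreated CEM, 6 of the 33 samples and 2 of the 11 groups of the series. Only 2 further comparisons were set beside it, namely CEM after 24 h in 10 µM prednisolone, a synthetic glucocorticoid, and the B-cell precursor leukaemia line Nalm6 after 24 h in 0.5 µM CHIR-99021, each with 3 libraries and each against 3 untreated libraries of its own line. The labels give the untreated cells' treatment as none and name no vehicle. No genetic change is named for CEM, and the growth medium is given for Nalm6 and its TLE1 knockout derivative only. Nothing in the labels says that the CEM libraries came from separate cultures, so p-values measure the spread between these libraries, which may be technical. In bulk RNA, fewer cells with a transcript and less transcript per cell cannot be told apart.

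CHIR-99021 inhibits both isoforms of glycogen synthase kinase 3, GSK3A and GSK3B. GSK3 phosphorylates β-catenin inside a destruction complex held together by AXIN and APC, which marks β-catenin for degradation. When the kinase is blocked, β-catenin accumulates and binds TCF and LEF factors at Wnt target genes, which is why the compound is used as a Wnt agonist. GSK3 has many other substrates, among them glycogen synthase, MYC, JUN, NOTCH and NFAT proteins and translation factors, and its own activity is restrained by AKT downstream of phosphoinositide 3-kinase (PI3K). In thymocytes, which T-lineage leukaemias resemble, TCF7 and LEF1 are factors of early T-cell development.

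The CEM libraries held 33838213 to 46149818 counts on genes in the controls and 35945267 to 52627912 after CHIR-99021. Summed T-lineage markers were at 4013 to 4049 CPM (counts scaled to library size) in controls and 3781 to 3894 CPM after treatment, with the T-cell receptor chain CD3D at 362 to 398 CPM in all 6 libraries. Of the 14 T-lineage markers tested, 1 rose and 1 fell. The fold change was positive in 4 of the 14, CD3D among them, with a median of -0.05 on the log2 scale. The falls numbered 0 to 1 over the alternative fits. B-lineage markers summed to 104 to 108 CPM in controls and 81.6 to 86.5 CPM after treatment. Of the 7 B-lineage markers tested, 1 rose and 3 fell. The rise, VPREB1 of the pre-B-cell receptor, was called in 6 of 13 alternative fits and lost in DESeq2, with a replicate block, and without CHIR library 1, CHIR library 3 or any 1 control. The marker MS4A1, a B-cell surface protein, had no count in any CEM library. Summed myeloid markers reached at most 2.68 CPM, erythroid markers 0.987, stromal markers 1.11 and NK-cell markers 22.4, and none of the 10 tested members of these 4 lists was called by edgeR or DESeq2, with 1 at an unadjusted p under 0.05. Libraries of a group were not copies of each other: comparing their counts over genes gave a chi-square of 2 to 12.2 for each degree of freedom. The first principal component, 34% of the variance, separated treated from control libraries. The second, 20.1%, placed CHIR library 3 at -18.1 against 15.1 and 11.1 for the other treated libraries. Fewer reads were unmapped after treatment (4.41 to 6.68%, against 7.12 to 7.91% in controls) and more fell on overlapping genes (6.91 to 7.32%, against 6.39 to 6.64%). The part of these differences in the results was not tested.

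CHIR-99021 moved many transcripts by small steps. Of 17200 genes with enough counts to test, 10.8% passed an adjusted p of 0.05 in edgeR's quasi-likelihood test with Benjamini-Hochberg adjustment, 5.41% as higher (hereafter rose) and 5.43% as lower (fell). Of the 12265 tested genes annotated as protein-coding, 1692 were called, a larger share than over all tested genes. The median size of a called change was 0.23 on the log2 scale, and the changes of 94 risen and 171 fallen genes reached 0.5. The median log2 fold change over all tested genes was -0.00, with 10% of genes under -0.28 and 10% over 0.19. In 1859 of the called genes every treated library lay on the same side of every control library. Such separation also held for 29.5% of all tested genes. Rises made up 57 of 77 tested cytosolic ribosomal proteins and 15 of 25 genes of the amino acid stress response. Falls made up 7 of 12 tested genes of the MYC-MAX network, 15 of 34 FOXO target-like genes, 6 of 7 GIMAP GTPases and 4 of 5 YPEL genes. The lists were chosen with earlier results of these data known, and the GIMAP and YPEL families after their values were seen. These groups share genes: MXI1 is in the MYC-MAX and FOXO lists, and YPEL5 in the FOXO list and the YPEL family. Values below are CPM in control libraries 1 to 3 and then CHIR libraries 1 to 3, and fold changes are log2 with their standard errors (SE). A gene described as risen or fallen kept that call in every alternative fit that tested it, 13 for most genes, unless another count is given. Where no member of a list was called in a direction, at most 5 of its members (the histones) had an unadjusted p under 0.05 in that direction, and DESeq2 called 1 rise among the mitosis genes and none elsewhere.

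**Figure D1:**
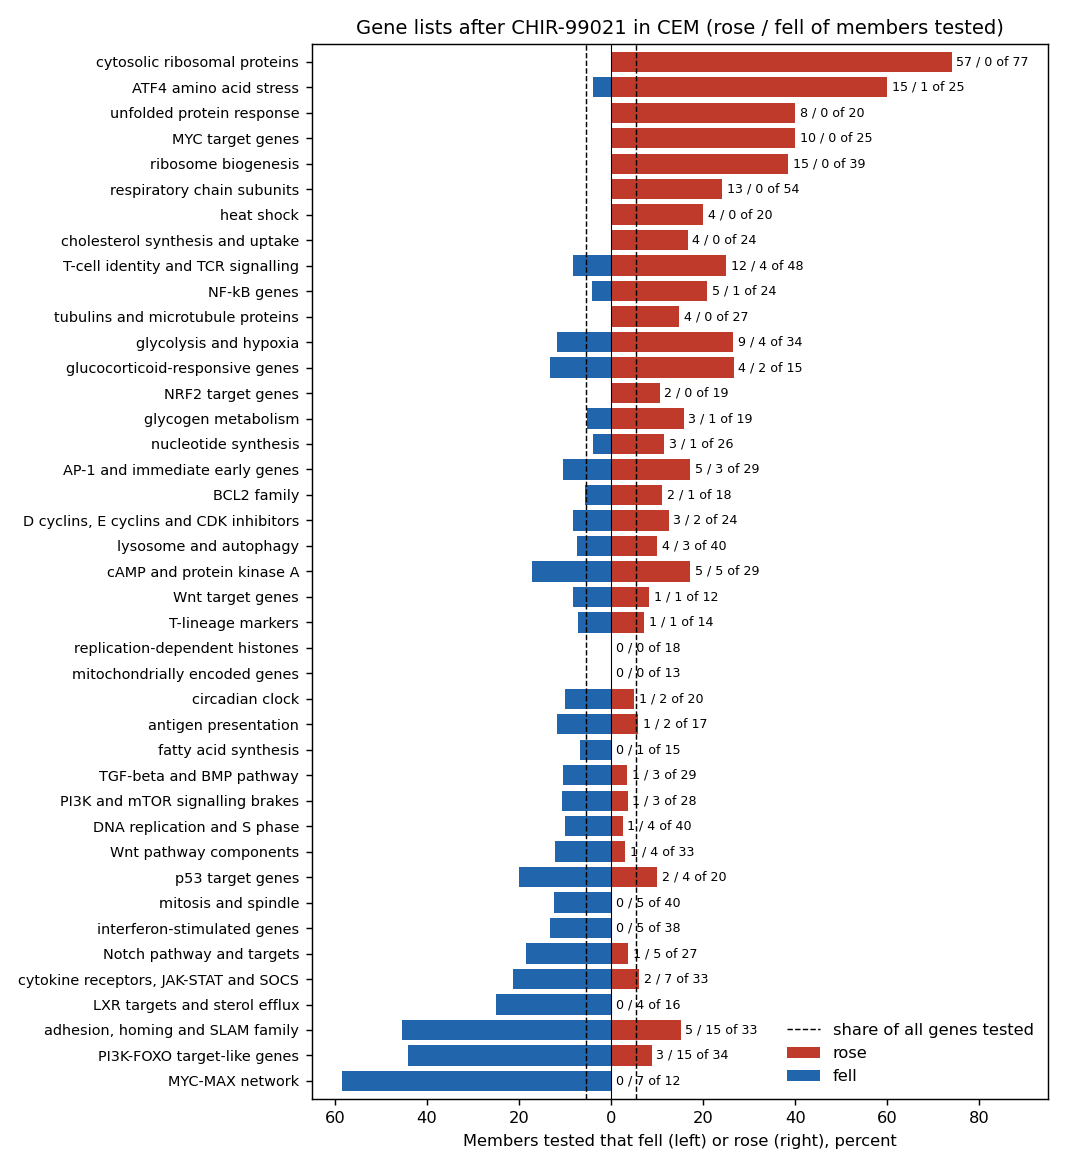
Share of tested members that rose (right) or fell (left) after CHIR-99021 in CEM for each gene list with at least 10 tested members, in percent, with the shares over all tested genes (5.41% and 5.43%) as dashed lines. The dashed lines include genes not annotated as protein-coding. Of the protein-coding genes 1692 of 12265 were called, a larger share than the 10.8% of all tested genes. Cytosolic ribosomal proteins extend furthest to the right, with 57 of 77 risen, and the MYC-MAX network furthest to the left, with 7 of 12 fallen.

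The drug's own targets were not called. Of the 33 tested Wnt pathway components 28 were not called either, with a called share of 15.15% against 10.8% of all tested genes. GSK3A was at 20.6, 22.8 and 23.6 CPM in controls and 21.5, 24.8 and 21.3 after treatment, and GSK3B at 86.1, 99.7 and 90.9 and then 96.0, 91.3 and 78.9. Both pairs of groups overlapped. Since the inhibitor acts on the kinase protein, these levels check nothing about exposure. β-catenin (CTNNB1, log2 fold change -0.08 ± 0.04), LEF1 (0.07 ± 0.03), TCF7 (0.18 ± 0.07) and the Groucho co-repressor TLE1 (0.05 ± 0.05) were not called. TCF7 ranged from 477 to 564 CPM in controls and from 519 to 629 after treatment.

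Of the Wnt pathway components, 33 of 36 were tested: 1 rose and 4 fell, with a median log2 fold change of -0.04. The falls included the FRAT proteins, which bind GSK3 and take it away from axin. FRAT1 was at 7.93, 8.51 and 7.65 CPM in controls and 4.69, 4.52 and 5.34 after treatment, a change of -0.72 ± 0.09 (adjusted p = 0.000409). FRAT2 changed by -0.49 ± 0.09, and the co-repressor TLE4 by -0.25 ± 0.04. The 1 rise was the receptor FZD5 (0.38 ± 0.10), called in 9 of 13 fits and lost in DESeq2 and without CHIR library 2, control 1 or control 2.

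AXIN2, the feedback inhibitor that serves as a standard readout of β-catenin, was at 1.08, 0.834 and 1.06 CPM in controls and 1.54, 1.58 and 1.17 after treatment. All treated libraries lay above all controls, but the adjusted p of 0.0644 (log2 fold change 0.56 ± 0.18) missed the threshold. Over the alternative fits that p ran from 0.0305 to 0.232, and 2 of 12 fits called the gene. Of 21 Wnt target genes, 12 were tested, with 1 rise, 1 fall and a median of 0.13. Without CHIR library 3 the rises numbered 3, and without control 2 they numbered 2. The fall was MYC, encoding a growth-promoting transcription factor. It was at 270, 278 and 265 CPM in controls and 179, 183 and 185 after treatment (-0.55 ± 0.04, adjusted p = 4.91e-06). All 3 treated libraries lay far below all controls. The letters ATCAAAG, a TCF-LEF motif searched on both strands, stood in 2.62% of 35116 RefSeq promoter windows. Counting a gene if any of its windows matched, it stood in 2.22% of the 10950 tested genes with a window, 2.02% of the risen and 1.66% of the fallen genes.

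The 10 largest rises, and likewise the 10 largest falls, were taken among called genes with an average log2 CPM of at least 1 whose groups did not overlap, so their separation is part of the choice. PKIG, an inhibitor of cAMP-dependent protein kinase, was at 3.62, 3.62 and 2.98 CPM and then 8.61, 7.36 and 9.65, a log2 fold change of 1.33 ± 0.12 (adjusted p = 3.97e-05). Counted without strand, the PKIG change was 0.39, still called. RASGRP1, which activates RAS below the T-cell receptor, rose from 92.3, 91.7 and 91.6 to 170, 161 and 168 CPM (0.88 ± 0.04, adjusted p = 3.12e-07). Its 3 controls lay within 1 CPM of each other.

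CD48, a SLAM-family ligand, rose from 5.76, 5.48 and 5.38 to 11.1, 10.5 and 10.7 CPM (0.98 ± 0.07). TNFSF8, the CD30 ligand, rose from 5.48, 5.42 and 5.23 to 10.9, 9.95 and 9.99 CPM (0.96 ± 0.08). MME, the peptidase CD10 known from lymphoid precursors, rose from 96.0, 93.9 and 100 to 186, 167 and 171 CPM (0.87 ± 0.05). The 3 genes code for proteins of the cell surface. RGS16, which shortens G-protein signals, changed by 0.91 ± 0.10, and the hypoxia factor EPAS1 by 0.87 ± 0.12. The other 3 of the 10 largest rises were ADAMTS19 (1.05 ± 0.14), MAP1B (0.96 ± 0.17) and the long non-coding LINC00689 (0.86 ± 0.13), all under 4 CPM in every library. CD34, a stem and progenitor surface protein, rose from 7.52, 8.42 and 7.54 to 14.9, 13.4 and 13.2 CPM (0.84 ± 0.08). TRIB1, a pseudokinase, had the steepest fold change of these (3.19 ± 0.30) but only from 0.282, 0.197 and 0.0591 to 1.61, 1.58 and 2.09 CPM. The control values ran from below the level of 3 counts to a few times that level.

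Of the 10 largest falls, chosen by the same level and separation, MYO7B, an unconventional myosin, was the steepest and fell from 12.5, 12.3 and 11.5 to 4.22, 3.90 and 3.53 CPM (-1.61 ± 0.08, adjusted p = 1.26e-06). KLHL24, a ubiquitin ligase adaptor and FOXO-responsive gene, fell from 29.6, 27.5 and 30.1 to 12.4, 12.3 and 12.7 CPM (-1.20 ± 0.05). ABCA1, the cholesterol efflux pump, fell from 4.79, 4.72 and 4.79 to 1.56, 1.91 and 2.23 CPM (-1.33 ± 0.12).

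CCR9, the receptor for the thymic and gut chemokine CCL25, fell from 7.61, 6.93 and 7.92 to 2.83, 3.48 and 3.42 CPM (-1.20 ± 0.10), and by 0.72 on the log2 scale where reads were counted without strand. ABTB1 fell from 12.6, 15.3 and 12.1 to 6.42, 5.76 and 5.56 CPM (-1.15 ± 0.10). NFE2, a transcription factor best known from erythroid and megakaryocytic cells, fell from 6.22, 6.05 and 5.32 to 2.58, 2.49 and 2.84 CPM (-1.15 ± 0.10). Neither of the 2 erythroid and megakaryocyte markers with enough counts to test was called. The peptide hormone APLN (-1.03 ± 0.08), the receptor subunit GFRA4 (-1.02 ± 0.10) and the antisense transcript VAC14-AS1 (-1.02 ± 0.13, and -0.36 without strand) completed these 10 with GIMAP5, described with its family. Genes of lower level, such as GIMAP8 and YPEL4, had steeper falls than some of them. ETV6, a repressor of the ETS family altered in many leukaemias, stood out by its level: it fell from 168, 194 and 174 to 103, 103 and 88.9 CPM (-0.84 ± 0.06).

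**Figure D2:**
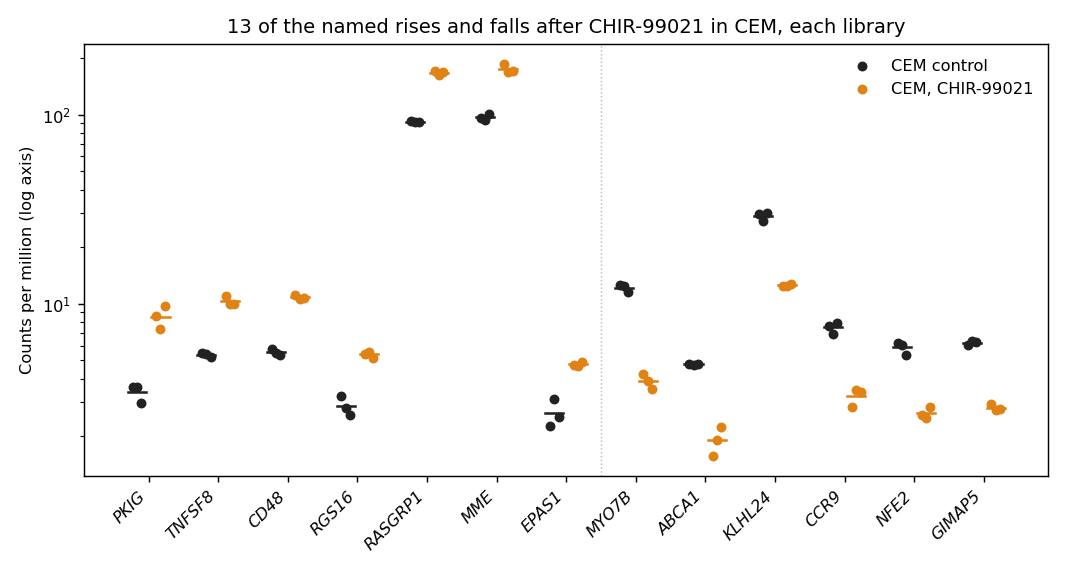
CPM on a log axis in each control and CHIR library for 13 of the named genes, each point 1 library and each bar a group mean. RASGRP1 stands near 92 in the controls and at 161 to 170 after treatment, and KLHL24 at 27.5 to 30.1 and then 12.3 to 12.7. Genes were chosen for groups that do not overlap.

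Most transcripts of cytosolic ribosomal proteins rose. Of the 78 proteins listed 77 were tested, 57 rose, none fell and 76 had a positive fold change, with a median log2 fold change of 0.18. The count of rises ran from 48 to 64 over the alternative fits. RPS27 went from 759, 731 and 761 to 916, 898 and 938 CPM (0.31 ± 0.03, adjusted p = 0.000137). RPL12 went from 551, 531 and 554 to 644, 652 and 685 CPM (0.30 ± 0.04). RPL37A (0.29 ± 0.04) and RPL11 (0.28 ± 0.04) followed. The exception in sign was RPS16, which scattered within both groups, at 351, 535 and 330 CPM and then 502, 377 and 242. Ribosomal protein genes took 5.07 to 5.23% of counts in controls and 5.72 to 5.97% after treatment. They have many near-identical pseudogene copies, so their counts are uncertain where reads could be split. The lower unmapped and higher ambiguous shares given for the treated libraries move with this list, and their part in it was not tested.

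**Figure D3:**
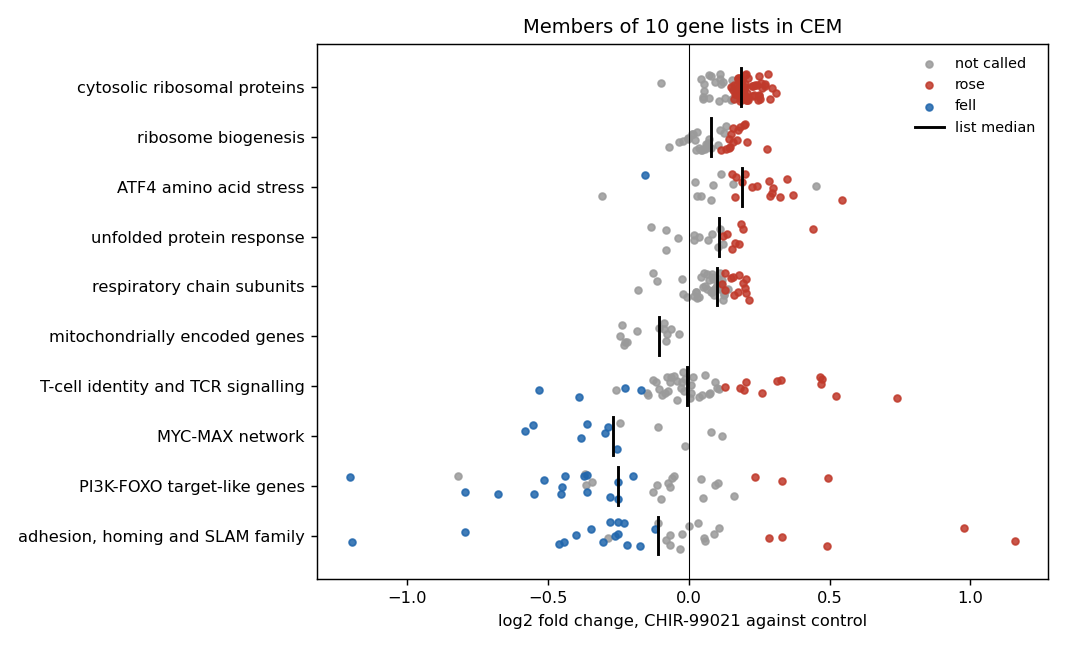
Log2 fold change of every tested member of selected gene lists after CHIR-99021 in CEM, each point 1 gene, red where it rose, blue where it fell and grey where not called, with the list median as a bar and a line at 0. The ribosomal proteins lie almost wholly right of the line (76 of 77), and the MYC-MAX network (median -0.27) and FOXO target-like genes (median -0.25) mostly left.

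Ribosome biogenesis genes build the ribosome in the nucleolus. Of 39 tested ribosome biogenesis genes (40 listed), 15 rose and none fell, with a median of 0.08. The rises numbered 4 without CHIR library 2, 4 without control 3, 6 without control 2, 8 without control 1 and 9 with a replicate block. NPM1, the nucleolar chaperone nucleophosmin, went from 713, 664 and 689 to 812, 819 and 840 CPM (0.28 ± 0.03, adjusted p = 0.000366). GNL3 (0.21 ± 0.04), MRTO4 (0.19 ± 0.04) and NIP7 (0.18 ± 0.04), all nucleolar assembly factors, rose by smaller amounts. The MYC target list shares genes with the ribosome biogenesis list, NPM1 among them. Over the same libraries 10 of 25 MYC target genes rose and none fell (median 0.09). Without CHIR library 2 that count was 4 and without control 3 it was 3. HSPD1, the mitochondrial chaperonin HSP60, went from 702, 673 and 688 to 789, 800 and 780 CPM (0.22 ± 0.03). BCAT1, which begins the breakdown of branched-chain amino acids, rose by 0.28 ± 0.04. These rises and the fall of MYC were in the same libraries.

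The MYC-MAX network holds the dimer partners and antagonists of MYC. In the MYC-MAX network of 13 genes, 12 were tested, none rose and 7 fell, with a median of -0.27. MXD4, a MAX partner that represses MYC sites, fell from 31.7, 34.4 and 31.2 to 21.6, 21.0 and 21.7 CPM (-0.58 ± 0.05). MXI1, of the same kind, fell from 16.7, 16.3 and 17.3 to 12.6, 13.1 and 12.9 CPM (-0.36 ± 0.06). MYCN (-0.38 ± 0.05) and MXD1 (-0.30 ± 0.06) also fell. Treated and control libraries did not overlap in any of these 4 genes.

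CCT, the cytosolic chaperonin that folds actin and tubulin, is a ring of several related subunits. Of the 8 tested genes with that symbol stem 7 rose, by 0.13 to 0.18, a family picked after its values were seen. CCT5 went from 552, 515 and 539 to 580, 581 and 611 CPM (0.16 ± 0.04). CCT4 and CCT8 kept the call in all 13 fits, while CCT2 kept it in 8, CCT6A in 10, CCT3 and CCT5 in 11 and CCT7 in 12. The highest adjusted p came without control 3 for CCT2 (0.102), CCT5 (0.063), CCT6A (0.0634) and CCT7 (0.0632), and without control 2 for CCT3 (0.0765).

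The E-box CACGTG, the site that MYC-MAX dimers prefer, was looked for on both strands of RefSeq promoter windows (250 bases before to 50 after the start, GRCh38.p14). It stood in 7.26% of all windows and, counting a gene if any of its windows matched, in 12.2% of the 10950 tested genes with a window, 16.5% of the risen and 14.2% of the fallen genes. Among ribosome biogenesis genes 17 of 33 (51.5%) and among MYC target genes 13 of 23 (56.5%) had it, against 4 of 62 ribosomal protein genes (6.45%). The ribosome biogenesis and MYC target lists share genes. An HSPD1 window with the E-box is shown as an example of a risen MYC target gene, while another HSPD1 window had no match. Shown are the 250 bases upstream on the minus strand at chr2:197500275-197500524, with the E-box in capitals, its first base 88 before the start.
HSPD1: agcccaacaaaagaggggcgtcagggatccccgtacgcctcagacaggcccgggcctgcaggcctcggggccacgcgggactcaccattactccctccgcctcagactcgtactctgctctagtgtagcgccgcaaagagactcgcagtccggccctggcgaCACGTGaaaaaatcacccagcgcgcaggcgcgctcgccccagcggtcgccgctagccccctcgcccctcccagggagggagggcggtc
A match describes letters in the window, not a bound site.

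ATF4 leads the amino acid stress response. It is the transcription factor whose translation increases when amino acids are short or the endoplasmic reticulum is stressed, and it switches on amino acid transport and serine and one-carbon metabolism. Of 29 listed genes 25 were tested, 15 rose and 1 fell, with a median log2 fold change of 0.19. The rises numbered 10 to 17 over the alternative fits. CHAC1, which degrades glutathione, went from 8.95, 9.87 and 10.6 to 13.1, 14.4 and 14.9 CPM (0.55 ± 0.08, adjusted p = 0.00101). SHMT2, the mitochondrial enzyme that turns serine into glycine, went from 196, 193 and 202 to 248, 249 and 257 CPM (0.37 ± 0.04). In both genes every treated library exceeded every control. SESN2, a leucine sensor (0.35 ± 0.07), the cystine carrier SLC7A11 (0.30 ± 0.04), PSPH of serine synthesis (0.29 ± 0.04), the factor ATF3 (0.28 ± 0.06), MTHFD2 of the folate pathway (0.24 ± 0.04) and ATF4 itself (0.23 ± 0.04) rose too. The glutamine carrier SLC38A2 changed by -0.15 ± 0.04, called in 10 of 13 fits and not without CHIR library 2, control 1 or control 3. Asparagine synthetase, ASNS, was higher in every treated library (2.64, 1.82 and 1.80 CPM and then 2.70, 2.85 and 3.06) but missed the test (adjusted p = 0.0774).

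The core of the composite site used by ATF4 and C/EBP partners, TGATGNAA, was searched on both strands. It stood in 3.62% of all promoter windows, in 2.71% of tested genes with a window, in 4.32% of risen and 2.56% of fallen genes, and in 7 of 22 genes of the ATF4 list (31.8%). Among that list's risen genes, ATF3, CHAC1, SLC3A2 and SLC1A5 held it. ASNS, CEBPG and AARS1 also held it and were not called. The CHAC1 window, the 250 bases upstream on the plus strand at chr15:40953221-40953470 of GRCh38.p14 in RefSeq, is shown because CHAC1 rose most in the list. The capitals mark the motif, which reads on the other strand and begins 209 bases before the start.
CHAC1: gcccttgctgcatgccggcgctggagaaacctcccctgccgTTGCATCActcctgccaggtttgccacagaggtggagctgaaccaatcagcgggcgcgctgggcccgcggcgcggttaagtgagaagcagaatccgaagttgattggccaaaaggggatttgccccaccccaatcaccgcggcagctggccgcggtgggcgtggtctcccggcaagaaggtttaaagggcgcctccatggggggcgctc

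In the unfolded protein response, which matches folding capacity of the endoplasmic reticulum to its load, 8 of 20 genes rose and none fell (median 0.11). XBP1, whose spliced product drives the response, went from 155, 150 and 147 to 198, 200 and 207 CPM (0.44 ± 0.04, adjusted p = 2.88e-05). The disulfide isomerases PDIA4 (0.19 ± 0.04) and PDIA6 (0.18 ± 0.03) rose. HSPA5, the chaperone BiP, scattered as RPS16 did (123, 161 and 119 CPM and then 156, 121 and 98.6) and was not called. The count of rises was 5 without CHIR library 1, CHIR library 2, control 1 or control 2, and 3 without control 3. In the heat shock list 4 of 20 rose. That count was 2 without CHIR library 2, control 1 or control 2, 1 without control 3, 2 with a replicate block and 7 with all CEM libraries fitted together. Of 19 NRF2 target genes tested 2 rose and none fell. Those rises numbered 1 without CHIR library 2 or control 3, and 2 genes fell without CHIR library 1 and 3 with no filter. Of 20 p53 target genes 2 rose and 4 fell. The falls numbered 1 without CHIR library 2 or control 2, and 2 in DESeq2 and without control 1 or control 3.

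Subunits of the respiratory chain are encoded in the nucleus and in mitochondrial DNA. Of 54 nuclear ones 13 rose and none fell, with a median of 0.10. The count was 7 without control 3 and 8 without CHIR library 2, control 1 or control 2. UQCRC2 of complex III went from 242, 225 and 235 to 264, 269 and 271 CPM (0.21 ± 0.04). COX6B1 of complex IV, ATP5PD of the ATP synthase and NDUFA1 of complex I each rose by 0.20 ± 0.04. None of the 13 genes encoded in mitochondrial DNA was called by edgeR or by DESeq2, none had an unadjusted p under 0.05, and 6 fell where no filter was used. Their median of -0.11 was 0.10 without control 2. Mitochondrially encoded transcripts were 0.836 to 1.20% of control counts and 0.726 to 1.01% of treated counts, and these ranges overlapped.

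Glycolytic and hypoxia genes were mixed, with 9 of 34 tested genes risen and 4 fallen (median 0.06). Without control 3 the counts were 5 and 2, without CHIR library 2 the falls numbered 2, and with all CEM libraries fitted together the rises numbered 14. VEGFA, the vascular growth factor, went from 21.3, 21.8 and 20 to 28.7, 30.7 and 28.5 CPM (0.49 ± 0.05). BNIP3, a mitophagy receptor, rose by 0.36 ± 0.05, and the glycolytic enzymes TPI1 and PKM by 0.22 ± 0.04 and 0.19 ± 0.03. NDRG1, another hypoxia gene, fell from 58.4, 64.5 and 59.5 to 44.6, 46.2 and 44.0 CPM (-0.42 ± 0.05). BNIP3L, the close relative of BNIP3, fell as well (-0.33 ± 0.04). BNIP3 and BNIP3L thus moved in opposite directions in the same libraries.

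Targets of the oxysterol receptor LXR and genes of sterol efflux, taken as 1 list, held 4 falls and no rise among 16 tested genes. Every alternative fit gave the same numbers of falls and rises. Beside ABCA1, its relative ABCG1 fell from 58.8, 56.0 and 59.0 to 37.1, 39.7 and 40.3 CPM (-0.55 ± 0.04, adjusted p = 1.68e-05), ABCA7 by 0.24 and SREBF1 by 0.22 on the log2 scale. Of 24 genes of cholesterol synthesis and uptake 4 rose and none fell (median 0.07). That count was 2 without control 2 or control 3, and 7 with no filter. MSMO1, of the late synthesis pathway, rose by 0.19 ± 0.03.

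FOXO factors switch on genes when PI3K and AKT are quiet. Of 40 listed genes 34 were tested, 15 fell and 3 rose, with a median of -0.25. The falls numbered 12 to 19 over the alternative fits. Beside KLHL24 they included CCNG2, a cyclin of resting cells, which fell from 46.0, 49.7 and 43.9 to 35.7, 32.3 and 32.7 CPM (-0.45 ± 0.06). PINK1, the kinase that flags damaged mitochondria, fell from 17.6, 17.7 and 16.8 to 12 in all 3 treated libraries (-0.52 ± 0.06). The factor FOXO4 changed by -0.45 ± 0.06, YPEL5 by -0.44 ± 0.07, the antiproliferative BTG2 by -0.36 ± 0.05 and the CDK inhibitor CDKN1B (p27) by -0.20 ± 0.04. KLF2, a quiescence and trafficking factor of T cells, fell from 2.82, 2.96 and 1.95 to 1.43, 1.53 and 1.53 CPM (-0.79 ± 0.16).

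Other members of the FOXO list did not follow. FOXO3 (-0.06 ± 0.04), TXNIP (0.05 ± 0.05) and SESN1 (-0.10 ± 0.07) were not called, and FOXO1 was too low to test. IL7R, the interleukin-7 receptor, rose from 9.45, 9.63 and 9.25 to 13.8, 12.5 and 13.1 CPM (0.50 ± 0.07), and S1PR1, the sphingosine receptor that lets T cells leave tissue, by 0.33 ± 0.04. The remaining rise, BCL6, was called in 5 of 13 fits, with an adjusted p of 0.134 without control 3. PIK3IP1, an inhibitor of PI3K (-0.68 ± 0.15), lost its call without strand, without CHIR library 1 and without control 1. TSC22D3, the glucocorticoid-induced GILZ (-0.55 ± 0.15), was called in 6 of 13 fits and lost it in DESeq2, with a replicate block, and without CHIR library 1, CHIR library 2 or any 1 of the controls. BCL2L11, the death protein BIM, was at 10.3, 11.3 and 9.31 CPM and then 9.27, 7.83 and 6.40, with an adjusted p of 0.0687.

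The forkhead site GTAAACA, on either strand, stood in 3.42% of windows, in 371 of the tested genes with a window (3.39%), in 19 of 741 risen genes (2.56%) and in 52 of 663 fallen genes (7.84%). In the FOXO list 10 of 31 genes had it (32.3%). Of these, FOXO4, PIK3IP1, MXI1 and TSC22D3 fell, and TXNIP, BTG1, TRIB2, YPEL3, BCL2L11 and ARRDC3 were not called. An MXI1 window with a match is shown because MXI1 belongs to both the FOXO list and the MYC-MAX network. MXI1 has other windows, with and without a match. Shown are the 250 bases upstream on the plus strand at chr10:110209981-110210230 of GRCh38.p14 in RefSeq, with the match, on the other strand and beginning 151 bases before the start, in capitals.
MXI1: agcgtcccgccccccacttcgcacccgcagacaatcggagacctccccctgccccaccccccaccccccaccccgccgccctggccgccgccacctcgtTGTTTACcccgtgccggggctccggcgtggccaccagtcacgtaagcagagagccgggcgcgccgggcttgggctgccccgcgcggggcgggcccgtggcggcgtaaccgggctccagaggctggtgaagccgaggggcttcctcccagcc

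Of 28 tested genes listed as brakes of PI3K and mTOR signalling 1 rose and 3 fell. The falls numbered 1 without control 1 and 1 without strand, and the rises 2 without CHIR library 1. Of 15 tested genes with the symbol stem PIK, which was picked after its values were seen, 7 fell and 2 rose, with a median of -0.21. PHLPP1, a phosphatase of AKT, changed by -0.29 ± 0.06. The leukocyte catalytic subunit PIK3CD fell from 79.4, 79.6 and 81.5 to 64.0, 66.5 and 65.2 CPM (-0.28 ± 0.03). Of the circadian clock list 20 were tested, 1 rose and 2 fell. NR1D2, the clock repressor REV-ERBβ, fell from 16.5, 14.8 and 16.2 to 9.94, 9.95 and 9.10 CPM (-0.69 ± 0.07), and BHLHE40 rose by 0.46 ± 0.07. The second fall, DBP, was lost without CHIR library 2 and without control 1, and 4 clock genes fell with all CEM libraries fitted together.

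Gene families were also formed by symbol stem, after the values had been seen, and are described without a test. Of 393 stems with at least 5 tested protein-coding genes, 20 had at least 40% of their genes called in a single direction. Among the stems furthest from the background were RPL (36 of 49 risen), CCT (7 of 8), GIMAP (6 of 7 fallen) and YPEL (4 of 5 fallen). A stem joins genes by name alone, so RPS also holds kinases of ribosomal protein S6.

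The GIMAP genes encode GTPases of the immune system that support lymphocyte survival, and lie next to each other in the genome, so they are not independent of each other. GIMAP7 fell from 23.1, 21.9 and 22.7 to 13.5, 13 and 13.2 CPM (-0.75 ± 0.05, adjusted p = 8.4e-06). GIMAP5 fell from 6.02, 6.34 and 6.26 to 2.93, 2.73 and 2.78 CPM (-1.12 ± 0.09). GIMAP6 fell from 105, 96.5 and 99.2 to 70.5, 73.2 and 69.4 CPM (-0.48 ± 0.04). Groups were fully apart in all 3. GIMAP8 (-1.36 ± 0.25), GIMAP1 (-0.71 ± 0.07) and GIMAP2 (-0.35 ± 0.04) fell too. GIMAP4, at 1.65, 1.16 and 1.03 CPM and then 0.741, 0.635 and 1.11, was not called (adjusted p = 0.105). The family median was -0.71.

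The YPEL genes, small zinc-binding proteins found across eukaryotes, had a median of -0.82. YPEL1 fell from 41.8, 39.3 and 40 to 31.6, 33.5 and 32.3 CPM (-0.30 ± 0.04). YPEL4 (-1.25 ± 0.22) and YPEL2 (-1.06 ± 0.21) fell from about 1 CPM. YPEL3 was lower in every treated library but not called (adjusted p = 0.091). Of the chemokine receptors 4 fell and 1 rose among 7 tested. CCR4, the receptor of skin-homing and type-2 helper T cells, fell from 141, 136 and 141 to 108, 106 and 111 CPM (-0.35 ± 0.04), CCR8 from 22.5, 22.1 and 20.8 to 14.3, 14.8 and 15.0 CPM (-0.55 ± 0.06) and the lymph-node receptor CCR7 by 0.25 on the log2 scale. The rise was CCR2 (1.75 ± 0.44), at or under 0.423 CPM in every library and called in 8 of 11 fits, with an adjusted p of 0.102 without control 1.

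**Figure D4:**
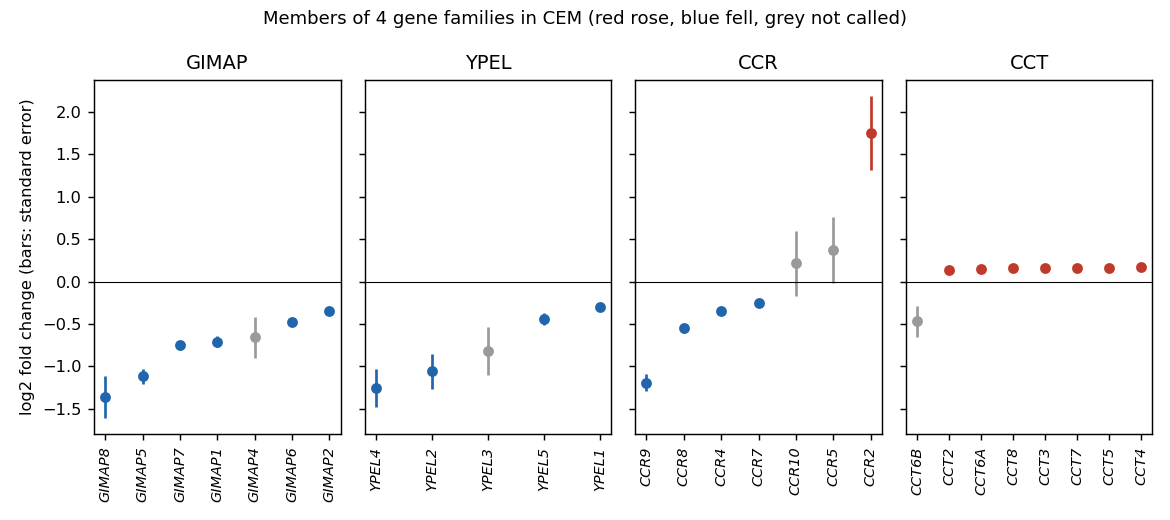
Log2 fold change of each tested gene of selected symbol stems in CEM after CHIR-99021, each point 1 gene with its standard error, red where it rose, blue where it fell and grey where not called. All 7 GIMAP and all 5 YPEL genes lie below 0, and 7 of 8 CCT genes lie above it.

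Surface molecules shifted in a mixed pattern. Of the adhesion, homing and SLAM family list 33 of 38 were tested, 15 fell and 5 rose (median -0.11), with 12 to 15 falls in the alternative fits. Within the SLAM family, whose members bind each other or CD48 between lymphocytes, CD84 fell from 55.2, 57.0 and 56.9 to 41.2, 41.8 and 38.2 CPM (-0.46 ± 0.04) and SLAMF6 from 25.1, 24.0 and 23.9 to 17.7, 17.7 and 17.6 CPM (-0.44 ± 0.05), while CD48 rose. The integrin chains parted as well. ITGA6, part of a laminin receptor, rose from 130, 127 and 133 to 183, 178 and 179 CPM (0.49 ± 0.04, adjusted p = 1.15e-05). ITGAE, which binds E-cadherin, fell from 59.7, 56.6 and 59.5 to 43.5, 43.0 and 44.9 CPM (-0.40 ± 0.04). ITGAL (0.00 ± 0.03) and ITGA4 (0.05 ± 0.03) were not called. The "don't eat me" signal CD47 (-0.26 ± 0.03) and CD58, the ligand of CD2 (-0.30 ± 0.06), fell. CD69, an early activation marker that retains cells in tissue, rose by 0.28 ± 0.05. CXCR3 rose by 1.16 ± 0.22 but stayed at or under 1.47 CPM.

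T-cell identity genes moved in both directions, with 12 of 48 tested risen and 4 fallen (median -0.00). The falls numbered 2 without CHIR library 2. The recombinase RAG1, which rearranges antigen receptor genes, rose from 418, 393 and 415 to 573, 541 and 557 CPM (0.47 ± 0.04, adjusted p = 2.12e-05), and its partner RAG2 by 0.33 ± 0.04. CD1A, a marker of cortical thymocytes, rose from 95.3, 85 and 89 to 129, 124 and 129 CPM (0.52 ± 0.04). TRAC, the constant part of the T-cell receptor alpha chain, rose from 8.17, 9.87 and 8.33 to 14.8, 13.9 and 14.8 CPM (0.74 ± 0.08). In each of these genes the lowest treated library exceeded the highest control. THEMIS, needed for thymocyte selection (0.47 ± 0.05), CD28 (0.32 ± 0.04) and CD4 (0.26 ± 0.04) also rose.

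Not all genes of the immature stage went up. DNTT, the terminal transferase that works beside the RAG proteins, fell from 124, 141 and 121 to 101, 87.5 and 74.9 CPM (-0.53 ± 0.09). SATB1, a chromatin organizer of thymocytes, fell from 488, 494 and 490 to 375, 383 and 352 CPM (-0.39 ± 0.04). CD3D (0.06 ± 0.04), CD3E (-0.12 ± 0.08), CD7 (-0.08 ± 0.04), LCK (-0.04 ± 0.04) and the pre-T-cell receptor chain PTCRA (-0.02 ± 0.08) were not called. Their treated and control libraries overlapped except for CD7, which was at 112 to 115 CPM in controls and 104 to 111 after treatment. Among B-lineage markers CD79A, a chain of the B-cell receptor that T-cell leukaemias can also carry, fell from 30.2, 29.6 and 31.0 to 21.6, 21.6 and 21.3 CPM (-0.47 ± 0.05).

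In the Notch pathway, which T-cell leukaemias commonly activate, 1 of 27 tested genes rose and 5 fell (median -0.08). The falls numbered 3 without CHIR library 2 or control 2. NOTCH1 fell from 576, 615 and 585 to 481, 490 and 486 CPM (-0.27 ± 0.04), and NOTCH3 and the Notch regulator DTX1 changed by -0.41 ± 0.07 and -0.41 ± 0.08. ADAM10, the protease that cuts Notch receptors, rose by 0.21 ± 0.04. The Notch target HES1 changed by -0.18 ± 0.04 and was called in 10 of 13 fits, with an adjusted p of 0.0849 without CHIR library 2.

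Cytokine signalling parts fell more often than they rose, 7 against 2 of 33 tested (median -0.07). The falls numbered 4 without CHIR library 2. STAT5A, which carries interleukin-7 and interleukin-2 signals, fell from 334, 322 and 326 to 240, 252 and 258 CPM (-0.37 ± 0.04). STAT5B (-0.30 ± 0.03), the kinase JAK3 (-0.31 ± 0.05) and its receptor chain IL2RG (-0.31 ± 0.06) fell. SOCS1, the feedback inhibitor of the same pathway, rose from 3.40, 4.15 and 2.69 to 5.64, 5.34 and 6.2 CPM (0.74 ± 0.13), and IL7R rose as given above. Treated and control libraries were apart in all of these genes.

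In cAMP signalling, to which PKIG belongs, 5 of 29 tested genes rose and 5 fell. With a replicate block these were 2 and 3. The rises numbered 2 without CHIR library 1, CHIR library 2 or any 1 control and 3 without CHIR library 3, and the falls 3 without control 1, 2 without CHIR library 2 or control 2 and 1 without control 3. PDE4D, which degrades cAMP, rose from 44.8, 43.8 and 43.7 to 65.1, 65.8 and 66.9 CPM (0.60 ± 0.04, adjusted p = 3.12e-06). PDE3B, another phosphodiesterase, fell from 138, 137 and 133 to 107, 106 and 107 CPM (-0.33 ± 0.04). Libraries within a group agreed closely in both genes.

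JUN, an AP-1 subunit whose protein GSK3 can mark for decay, rose from 36.8, 40.5 and 37.4 to 48.5, 52.1 and 55.4 CPM (0.46 ± 0.06). In its list of AP-1 and immediate early genes 5 of 29 rose and 3 fell. The rises numbered 2 without control 1 and the falls 1 without CHIR library 2. FOS (-0.10 ± 0.21) and EGR1 (-0.46 ± 0.16, adjusted p = 0.0987) were not called. Of 24 NF-κB genes 5 rose and 1 fell. The rises numbered 3 in DESeq2, with a replicate block and without CHIR library 1, CHIR library 2, control 1 or control 3. RELB, a subunit of the alternative pathway, rose from 2.69, 2.35 and 2.54 to 3.76, 4.07 and 4.20 CPM (0.68 ± 0.10). The NF-κB target genes CD83 (0.35 ± 0.05) and BIRC3 (0.26 ± 0.05) rose, and LTB, which encodes lymphotoxin-β, fell by 0.39 on the log2 scale.

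Of 18 BCL2 family genes, which control cell death, 2 rose and 1 fell. PMAIP1, the death protein NOXA, rose from 45.2, 41.4 and 44.4 to 59.8, 53.9 and 59.9 CPM (0.42 ± 0.05), and BIK by 0.40 ± 0.07. BBC3, which encodes PUMA, fell from 1.13, 1.23 and 1.24 to 0.589, 0.376 and 0.751 CPM (-1.06 ± 0.22). MCL1 (0.04 ± 0.03) and BCL2 (0.18 ± 0.06) were not called. The falls numbered 2 without CHIR library 1, with a replicate block or with no filter, and 3 with all CEM libraries fitted together.

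Of 40 genes of DNA replication and S phase 1 rose and 4 fell, and of 40 of mitosis none rose and 5 fell. In each of these lists 12.5% of members were called, near the 10.8% of all tested genes. The S-phase rises numbered 2 without CHIR library 1, and the falls 1 without CHIR library 2 or control 3 and 2 without control 1 or control 2. The mitotic falls numbered 1 without control 1 or control 3, 2 without CHIR library 2, and 3 without CHIR library 1, without strand or with a replicate block. None of 18 replication-dependent histone genes was called by edgeR or DESeq2, 5 had an unadjusted p under 0.05, and 4 rose where no filter was used. CCND3, a cyclin of lymphocyte division, fell from 566, 568 and 569 to 431, 443 and 480 CPM (-0.31 ± 0.04), and its partner kinase CDK6 rose by 0.19 ± 0.04. Of 27 tubulin and microtubule genes 4 rose and none fell, led by TUBA4A (18.4, 16.4 and 17.6 and then 27.8, 24.9 and 25.8 CPM, 0.60 ± 0.06). The tubulin rises numbered 2 without control 3.

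Of 38 interferon-stimulated genes none rose and 5 fell (median -0.13). The falls numbered 2 without control 1 and 3 in DESeq2, without strand, with a replicate block and without CHIR library 2, control 2 or control 3. IRF1 fell from 110, 110 and 109 to 84.7, 90.5 and 91.4 CPM (-0.29 ± 0.04), and the ubiquitin ligase HERC5 by 0.20 on the log2 scale. NLRC5, which switches on MHC class I genes, fell from 75.8, 75.5 and 75.5 to 59.0, 61.0 and 60.6 CPM (-0.31 ± 0.03). It was 1 of 2 falls among 17 antigen presentation genes, beside 1 rise. The fall count was 1 without CHIR library 2 or control 1, and the rise was lost without CHIR library 2 or any 1 control. The 3 BTN3A butyrophilins changed by -0.20 to -0.25, with BTN3A3 at an adjusted p of 0.0505 without control 1.

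Among smaller lists, the genes of glycogen metabolism held 3 rises and 1 fall of 19 tested (median -0.00). That called share was 21.05%, against 10.8% of all tested genes. GBE1, the branching enzyme, rose from 57.9, 53.1 and 55.1 to 66.2, 63.8 and 67.9 CPM (0.27 ± 0.04). The glycogen rises numbered 1 without control 1, and the fall was lost without CHIR library 2, control 1 or control 3. SMAD6, an inhibitor of BMP signals, fell from 85.8, 90.1 and 88.0 to 62.1, 67.6 and 71.9 CPM (-0.37 ± 0.05). In the lysosome list NEU1 rose by 0.37 ± 0.05 and CLCN7 and CTSD changed by -0.31 ± 0.05 and -0.24 ± 0.05. Of 9 tested granule genes 3 rose and 1 fell, with GZMA at 7.54, 6.03 and 6.74 and then 8.86, 9.22 and 9.10 CPM (0.44 ± 0.09) and GZMM falling by 0.39 on the log2 scale. GZMB had no count in any of the 6 libraries, which allows up to 3 counts in each.

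The same compound was given to Nalm6 at 0.5 µM, and these Nalm6 libraries lie in another range of sample numbers than the CEM libraries. Dose, cell line and sample set therefore cannot be told apart in what follows. In Nalm6, 7.88% of 18082 tested genes were called. The difference between the CEM and the Nalm6 response, tested as an interaction term in edgeR, passed the threshold for 235 of 20005 genes (1.17%), 126 with the higher response in CEM and 109 with the lower. Of the genes called in CEM, 144 were among them. In 38 of the 235 the difference reached 1 on the log2 scale.

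Genes that parted most included MYO7B, whose CEM response lay 1.93 below that of Nalm6 on the log2 scale (adjusted p = 3.24e-07). In Nalm6 it was at 4.91, 4.24 and 4.32 CPM in controls and 5.93, 5.39 and 5.58 after treatment. CD34 moved in opposite directions, rising in CEM and falling in Nalm6 from 7.12, 6.79 and 6.48 to 3.50, 2.55 and 3.19 CPM, a difference of 2.00 (adjusted p = 4.93e-07). TRIB1 rose in CEM from near the limit of counting and changed by -0.29 in Nalm6, where its controls stood at 33.2 to 34.3 CPM, a difference of 3.48. ITGA6 rose in CEM and went from 110, 100 and 104 to 88.7, 90.6 and 92.5 CPM in Nalm6, a difference of 0.70. RAG1 also rose in CEM and fell in Nalm6 (-0.28), a difference of 0.75.

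GZMA rose in both lines but far more in Nalm6, from 1.28, 1.06 and 0.941 to 5.86, 5.65 and 4.92 CPM, so that the CEM response lay 1.87 below. APLN (-1.33) and ABCA1 (-1.03) responded lower in CEM, and the ABCA1 change in Nalm6, from control levels of 50.7 to 52.7 CPM, was -0.30. XBP1 (0.56), PDE4D (0.60), MME (0.67), RGS16 (1.00) and SHMT2 (0.29) responded higher in CEM. PKIG differed by 1.36 and this was lost where reads were counted without strand. The MYC fall was deeper in CEM (-0.55, against -0.23 in Nalm6), with an interaction of -0.32 (adjusted p = 0.0108) that was lost with a replicate block.

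Several large CEM falls had a Nalm6 counterpart whose difference was not called. KLHL24 changed by -0.90 in Nalm6, ABTB1 by -1.47, FRAT1 by -0.67, CCNG2 by -0.70 and PINK1 by -0.64. The interaction for KLHL24 was -0.30 ± 0.11 and for FRAT1 -0.04 ± 0.13. Of the YPEL genes tested in Nalm6 4 of 4 fell. By list, Nalm6 had 16 falls and 4 rises among 38 tested FOXO target-like genes and 18 rises among 39 tested ribosome biogenesis genes. Over all genes tested in Nalm6, 7.88% were called in either direction. Of the 77 ribosomal proteins tested in Nalm6 1 rose, with a list median of 0.10 against 0.18 in CEM. Their share of counts was 7.52 to 7.57% in Nalm6 controls and 7.59, 7.84 and 8.40% in treated libraries 1 to 3. Treated Nalm6 library 3 also had the lowest mitochondrially encoded share (0.444%, against 0.661 and 0.716%). The part of this spread in the Nalm6 calls was not tested. For the ribosomal list edgeR's interaction was called for 0 of 77, with 13 at an unadjusted p under 0.05 and 2 called by DESeq2. Of the 27 ATF4 genes tested in Nalm6 1 rose and 1 fell (median 0.04, against 0.19 in CEM). The interaction was called for 2 of 27, beside 1.17% of all genes tested for it. Of these 27 genes 12 had an unadjusted interaction p under 0.05, and DESeq2 called 2. For single genes of the ATF4 list the interaction was called for SHMT2 and CHAC1 among the named genes and not for SESN2 (0.27), PSPH (0.16) or ATF4 (0.16).

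**Figure D5:**
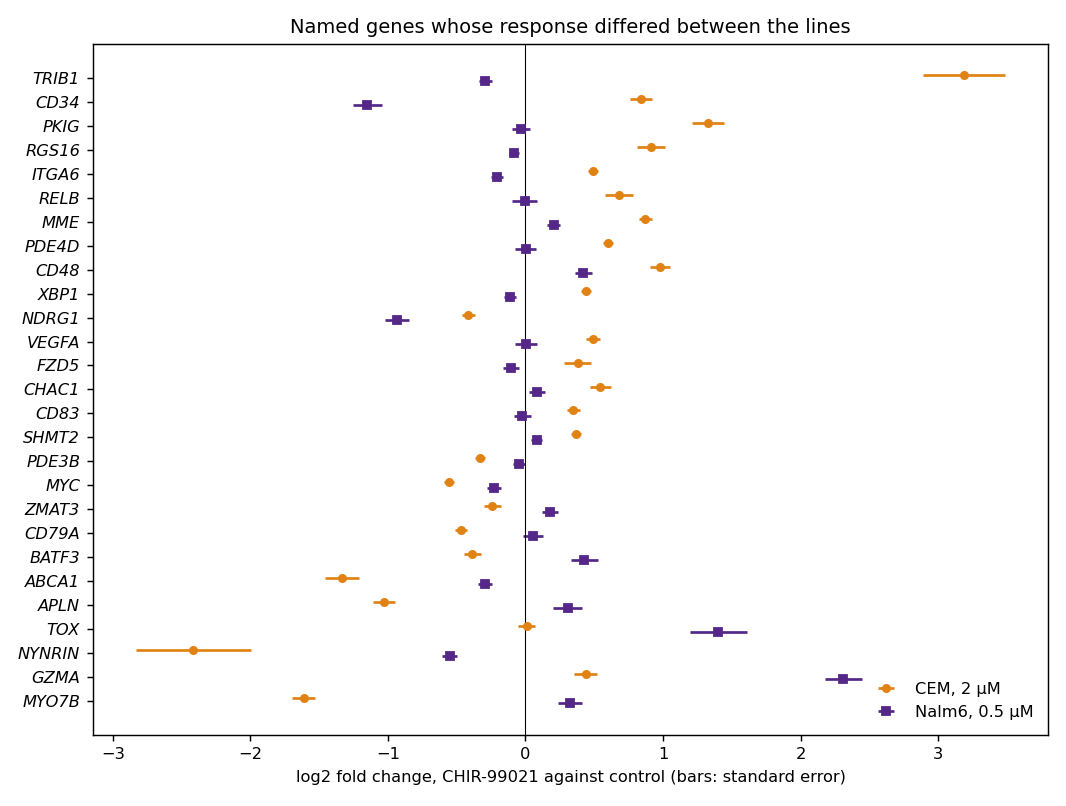
Log2 fold change after CHIR-99021 in CEM (2 µM) and in Nalm6 (0.5 µM) for 27 of 29 named genes whose responses differed by the interaction term, each point 1 gene and line with its standard error. CD34, TRIB1 and ITGA6 lie right of 0 in CEM and left of 0 in Nalm6, and MYO7B the other way.

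Prednisolone in the same line gave a far wider response, with 45.1% of 17381 tested genes called. The prednisolone and CHIR-99021 comparisons share the 3 control libraries, so their values are set side by side only. KLHL24 changed by -1.20 with CHIR-99021 and 0.75 with prednisolone, CCR9 by -1.20 and 1.6, MXD4 by -0.58 and 1.08, and FOXO4 by -0.45 and 0.76. RAG1 changed by 0.47 and -1.14, CHAC1 by 0.55 and -1.33, and RASGRP1 by 0.88 and -0.51. MYC had negative values under both, -0.55 and -0.81. CD48 (0.98 and 1.20), TNFSF8 (0.96 and 4.07) and IL7R (0.50 and 3.48) had positive values under both. Of 35 tested FOXO target-like genes prednisolone raised 28 and lowered 4, and of 25 tested ATF4 genes it raised 1 and lowered 22. The glucocorticoid receptor NR3C1 was at 202, 202 and 207 CPM in controls and 194, 190 and 183 after CHIR-99021 (-0.09 ± 0.04, not called), and changed by 1.54 with prednisolone. Of 15 tested glucocorticoid-responsive genes 4 rose and 2 fell with CHIR-99021 (median 0.03), against 15 rises with prednisolone. The rises with CHIR-99021 numbered 2 with a replicate block or without CHIR library 1, 2 or 3 or control 1, and 1 without control 2 or control 3. The falls numbered 1 without CHIR library 2, control 2 or control 3 and none without control 1.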

How the data were processed

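Total RNA from the cell lines was sequenced by the submitters, and 1 table of read counts per gene and library was deposited by the authors. Per the submitters' processing notes Bowtie2, DESeq2 and build hg19 were used, with no versions given. The tables have the layout of STAR gene counts, with columns for reads without strand and on either strand, and the aligner behind them is not given in the sources used here. The last column was used because it held 14.4 to 14.6 times the counts of the opposite strand in CEM. Groups follow the titles: the treatment protocol in the labels gives 0.5 µM CHIR-99021 to TLE1 KO cells, while titles and treatment labels give it to Nalm6. Tables have 62446 gene rows. The 4 rows that name no gene were left out: unmapped reads (4.41 to 7.91% of the total in CEM), reads on several loci (5.14 to 5.87%), outside genes (18.4 to 19.8%) and on overlapping genes (6.39 to 7.32%). A symbol was found for 57759 IDs.

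Counts were filtered with edgeR's filterByExpr, scaled by TMM and tested with edgeR's quasi-likelihood test, treated against control, 3 libraries each, with Benjamini-Hochberg adjustment over all tested genes and a threshold of 0.05. The difference between lines was an interaction term over 12 libraries of both lines. R 4.3.3, edgeR 4.0.16, DESeq2 1.42.0 and limma 3.58.1 were used, and the scripts were tested on simulated counts. The common biological coefficient of variation was 4.88%. A count of 0 allows up to 3 counts, 0.057 to 0.0887 CPM in these libraries, for counting error only.

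Named genes were the 10 largest called rises and falls with an average log2 CPM of at least 1 and no overlap between groups, up to 4 called members of each of 47 gene lists or, with none called, the member with the highest mean CPM (1296 of 1303 entries matched), a fixed set around GSK3, MYC and glucocorticoid response, and the 5 largest differences between lines in each direction. The lists and the rule were chosen with earlier results of these data known, and families and further list members named in the text were picked after their values were seen. Some genes that the rule names are not reported here. Alternatives were DESeq2, other scaling, filters, strand column and sample sets, a replicate block, and leaving out each library. Promoter windows came from RefSeq tables of GRCh38.p14, matched by symbol, and no coordinates of the deposited build were used.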

Additional observations from a re-analysis of the deposited data

Results flagged for a closer look

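The CHIR-99021 response of CEM differed from that of Nalm6 by an edgeR interaction term for the 29 named genes below, given as the CEM minus the Nalm6 log2 fold change. Doses were 2 and 0.5 µM and the libraries lie in separate ranges of sample numbers, so line, dose and sample set cannot be told apart.

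Lower responses in CEM were found for MYO7B (-1.93), GZMA (-1.87), APLN (-1.33), ABCA1 (-1.03), BATF3 (-0.81), CD79A (-0.52), ZMAT3 (-0.41), MYC (-0.32) and PDE3B (-0.28). NYNRIN differed by -1.86, from a CEM level of at most 0.368 CPM. TOX, a chromatin factor of developing T cells, differed by -1.38, with a CEM change of 0.01, at 140, 154 and 141 and then 157, 145 and 129 CPM, and in Nalm6 it went from 0.791, 0.877 and 0.853 to 2.74, 2.41 and 1.59 CPM.

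Higher responses in CEM were found for SHMT2 (0.29), CD83 (0.38), CHAC1 (0.47), FZD5 (0.49), VEGFA (0.50), NDRG1 (0.52), XBP1 (0.56), CD48 (0.56), PDE4D (0.60), MME (0.67), RELB (0.69), ITGA6 (0.70), RGS16 (1.00), PKIG (1.36), CD34 (2.00) and TRIB1 (3.48). TRIB1 was at 0.282, 0.197 and 0.0591 CPM in the CEM controls, the last below the floor of 3 counts, and at 1.61, 1.58 and 2.09 CPM after treatment. NDRG1 fell in both lines, by 0.42 in CEM and 0.93 in Nalm6 on the log2 scale.

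DNAJC15 (4.86) and CECR2 (3.46) rested on libraries near or at 0 counts. DNAJC15 had none in the 3 treated Nalm6 libraries and at most 0.104 CPM in the Nalm6 controls, and 17.2 to 19.1 CPM in CEM. CECR2 had none in 2 CEM controls and at most 0.0941 CPM in treated CEM, and 28.6, 32.6 and 31.1 CPM in the Nalm6 controls. These 2 values depend on how counts of 0 are treated.

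Some of these calls were lost when a library was left out or the fit was changed: PKIG without strand, MYC with a replicate block, and FZD5 in 7, VEGFA in 6, CHAC1 in 8, ZMAT3 in 9, and RELB and CD83 in 5 of 17 alternatives, NYNRIN and DNAJC15 in 5 and CECR2 in 12 of 16.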

How the results depend on the processing

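In CEM 1865 genes were called. Other tools, scaling, filters, strand column or sample sets called 1653 (DESeq2, 1544 of them among the 1865) to 2475 (all CEM libraries fitted together, 1858 among them). When a library was left out the count ran from 1001 (without CHIR library 2) to 1948 (without CHIR library 3), with 1136, 1104 and 1064 without controls 1, 2 and 3. Genes called with a change of at least 1 on the log2 scale numbered 67, against 12 in DESeq2, 33 with at least 10 counts required in every library and 50 to 66 without single libraries. The difference from Nalm6 was called for 235 genes, against 418 in DESeq2 and 149 (without CEM control 3) to 388 (without Nalm6 CHIR library 3) without single libraries, with 150 and 153 without Nalm6 controls 2 and 3. The cause of these differences was not tested. No named gene changed direction between the main fit and an alternative where either fit called it. Sign changes of genes called in neither were not counted. Of 155 named genes called in CEM, 106 were called in every alternative and 49 were lost in at least 1. Genes near the floor of 3 counts, such as NYNRIN after treatment, were limited by depth.

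With the replicate number as a block, 1462 genes were called, 52 of them with a change of at least 1, and the difference from Nalm6 was called for 163. The numbers were not taken as a pairing: same-numbered CEM libraries deviated from their group means with correlations of -0.0793, -0.00111 and 0.028, and no treated library correlated best with the control of its own number.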
